A study of Mus musculus with 15 samples.

Results

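The insulin-like growth factor 1 (*Igf1*), its receptor (*Igf1r*) and 6 IGF-binding proteins (*Igfbp2* to *Igfbp7*) were followed in Mouse Embryonic Fibroblasts (MEFs) across 5 culture conditions. The members were the probes of the microarray, control spots left out, that carry a RefSeq transcript of one of these 8 genes, among 23462 genes named on the array. They were found by 10 of the 56605 probes, *Igf1r* and *Igfbp4* having 2 probes each. MEFs, the fibroblasts of connective tissue, were here an established line that grows without limit: the labels give 3T3 and the study's methods a 3T3 clone from Balb/c mice, so that all groups came from 1 clone. Controls were left without cytokine. TNFα was given at 10 ng/ml and TGFß1 at 5 ng/ml. A further group had IL-1β at a dose of 1 ng/ml, and the last had IL-6 (20 ng/ml) with its soluble receptor sIL-6Rα (25 ng/ml), called IL-6 below. Each group had 3 arrays, named here by the cytokine and a number from the label. The labels give 24 or 72 h without saying which. The study's text places the arrays of control, TNFα and TGFß1 cultures at the shorter time and in separate experiments. For IL-1β and IL-6 neither is settled, and where replicates were not separate cultures the tests measure technical spread only.

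IGF1 is a small secreted hormone that drives growth and survival by binding a receptor tyrosine kinase. In body fluids and tissue matrix most IGF is held by binding proteins, which keep it from the receptor or carry it, and proteases that cut a binding protein release it again. Fibroblasts are a known local source of IGF1 and of several binding proteins in connective tissue.

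A level is given as the log2 processed signal of a probe minus the 75th percentile of its array, so that 0 is the 75th percentile and 1 unit is a doubling. Levels of different probes are not comparable with each other. The 75th percentile itself lay between 508 and 683 before this step, 48.3% to 54.9% of the probes per array were well above background, and the number of arrays limits the precision. All 12 fibroblast markers, collagens and *Pdgfra* among them, were well above background on all 15 arrays. Of the markers of other cells, *Ptprc*, *Adgre1*, *Cdh1*, *Cdh5*, *Kdr* and the 4 muscle markers were well above background on 0 arrays, while *Itgam*, *Cd68*, *Csf1r*, *Cd3e*, *Pecam1*, *Lep* and *Fabp4* were on 15. Of the epithelial keratins *Krt18* was so on 10 arrays, *Krt8* on 4, *Krt14* on 3 and *Krt5* on 0. Of the fibroblast markers 1 was called higher and 6 lower with TNFα and 1 higher and 5 lower with TGFß1. Of all probes 10.2% were called with TNFα and 18.0% with TGFß1. The 15 arrays lay on 2 slides, slide 1 with controls 1 and 11, TNFα 14, TGFß1 7, IL-1β 5 and 10 and IL-6 3 and 8, and slide 2 with the other 7. Some of the members differed between the slides, so values with the slide in the model and within each slide are given beside the results. Each slide held 1 or 2 arrays of each group, and within-slide values are given without a test.

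The RefSeq table for the assembly GRCm38.p6 holds a start for all 8 genes. The 250 bases before the start are shown for the 3 genes whose levels changed in a comparison with control, read 5′ to 3′ on the strand of the gene. Capitals mark matches to any of 6 motifs that were searched on both strands. These were AP-1 (TGANTCA), STAT (TTCNNNGAA), C/EBP (TTNNGCAA), the TATA box (TATAAA), a SMAD element (CAGACA) and the NF-kB consensus. *Igf1* is on the plus strand at chr10:87860861-87861110. *Igfbp6* is on the plus strand at chr15:102143936-102144185 and *Igfbp7* on the minus strand at chr5:77408046-77408295.
Igf1: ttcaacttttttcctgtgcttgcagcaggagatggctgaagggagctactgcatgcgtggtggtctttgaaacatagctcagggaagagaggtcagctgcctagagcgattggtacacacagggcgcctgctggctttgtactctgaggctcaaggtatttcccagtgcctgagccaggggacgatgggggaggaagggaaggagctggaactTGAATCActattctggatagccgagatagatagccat
Igfbp6: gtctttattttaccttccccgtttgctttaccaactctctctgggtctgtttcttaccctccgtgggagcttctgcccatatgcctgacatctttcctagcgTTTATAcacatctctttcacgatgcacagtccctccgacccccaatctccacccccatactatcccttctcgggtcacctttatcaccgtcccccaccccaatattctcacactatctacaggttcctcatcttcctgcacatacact
Igfbp7: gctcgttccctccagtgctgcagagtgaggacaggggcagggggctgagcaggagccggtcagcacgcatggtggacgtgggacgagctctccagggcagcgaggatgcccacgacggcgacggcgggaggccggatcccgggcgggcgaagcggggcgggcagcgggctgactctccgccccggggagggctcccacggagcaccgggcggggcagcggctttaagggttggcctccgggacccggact

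In the *Igf1* sequence the capitals are an AP-1 match at positions -37 to -31 counted from the start, a motif found in 6.75% of 32851 promoter windows of this length. In the *Igfbp6* sequence they are a TATA box match on the opposite strand at -148 to -143, a motif found in 12.4% of the windows. None of the 6 motifs matched in the *Igfbp7* window, which had 74.0% G and C against 52.8% for *Igf1* and 49.6% for *Igfbp6* (median of all windows 52.4%). Among the other members, *Igfbp4* held a TATA box at -28 to -23, *Igfbp5* had 2 overlapping NF-kB matches from -196 to -186, and 1 of the 2 starts of *Igfbp2* had an AP-1 match at -39 to -33. The remaining motifs were found in 7.02% (STAT), 9.56% (C/EBP), 17.1% (SMAD) and 7.25% (NF-kB) of the windows and in no window of *Igf1*, *Igfbp6* or *Igfbp7*. A match of letters is no evidence of binding.

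*Igf1* and *Igfbp6* fell with both TNFα and TGFß1, *Igfbp7* rose with TNFα, and no member was called with IL-1β or IL-6. Of the 8 members, 6 were tested, the other 2 being too dim. A call needed both a q-value under 0.05 and a change of 1.5-fold or more in either direction, by limma over the 29334 probes tested. With TNFα, 1 of the 6 was called higher and 2 were called lower, where 10.2% of all probes were called, 4.12% higher and 6.06% lower. No member was called higher with TGFß1 and 2 were called lower, beside 18.0% of all probes, 7.17% higher and 10.8% lower. The median log2 fold-change of the 6 was -0.57 with TNFα and -0.26 with TGFß1, against 0.04 and 0.05 over all probes tested. With IL-1β and IL-6, 0 of the 6 were called, beside 0.252% and 0.0648% of all probes. An unadjusted p below 0.05 in the same test was found for 1 and 0 of the 6, beside 1088 and 955 of the 29334 probes. The medians of the 6 were -0.01 and 0.01. The 4 comparisons share the control arrays and are not independent of each other. In bulk RNA, fewer cells of a type and less RNA per cell cannot be told apart.

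**Figure D1:**
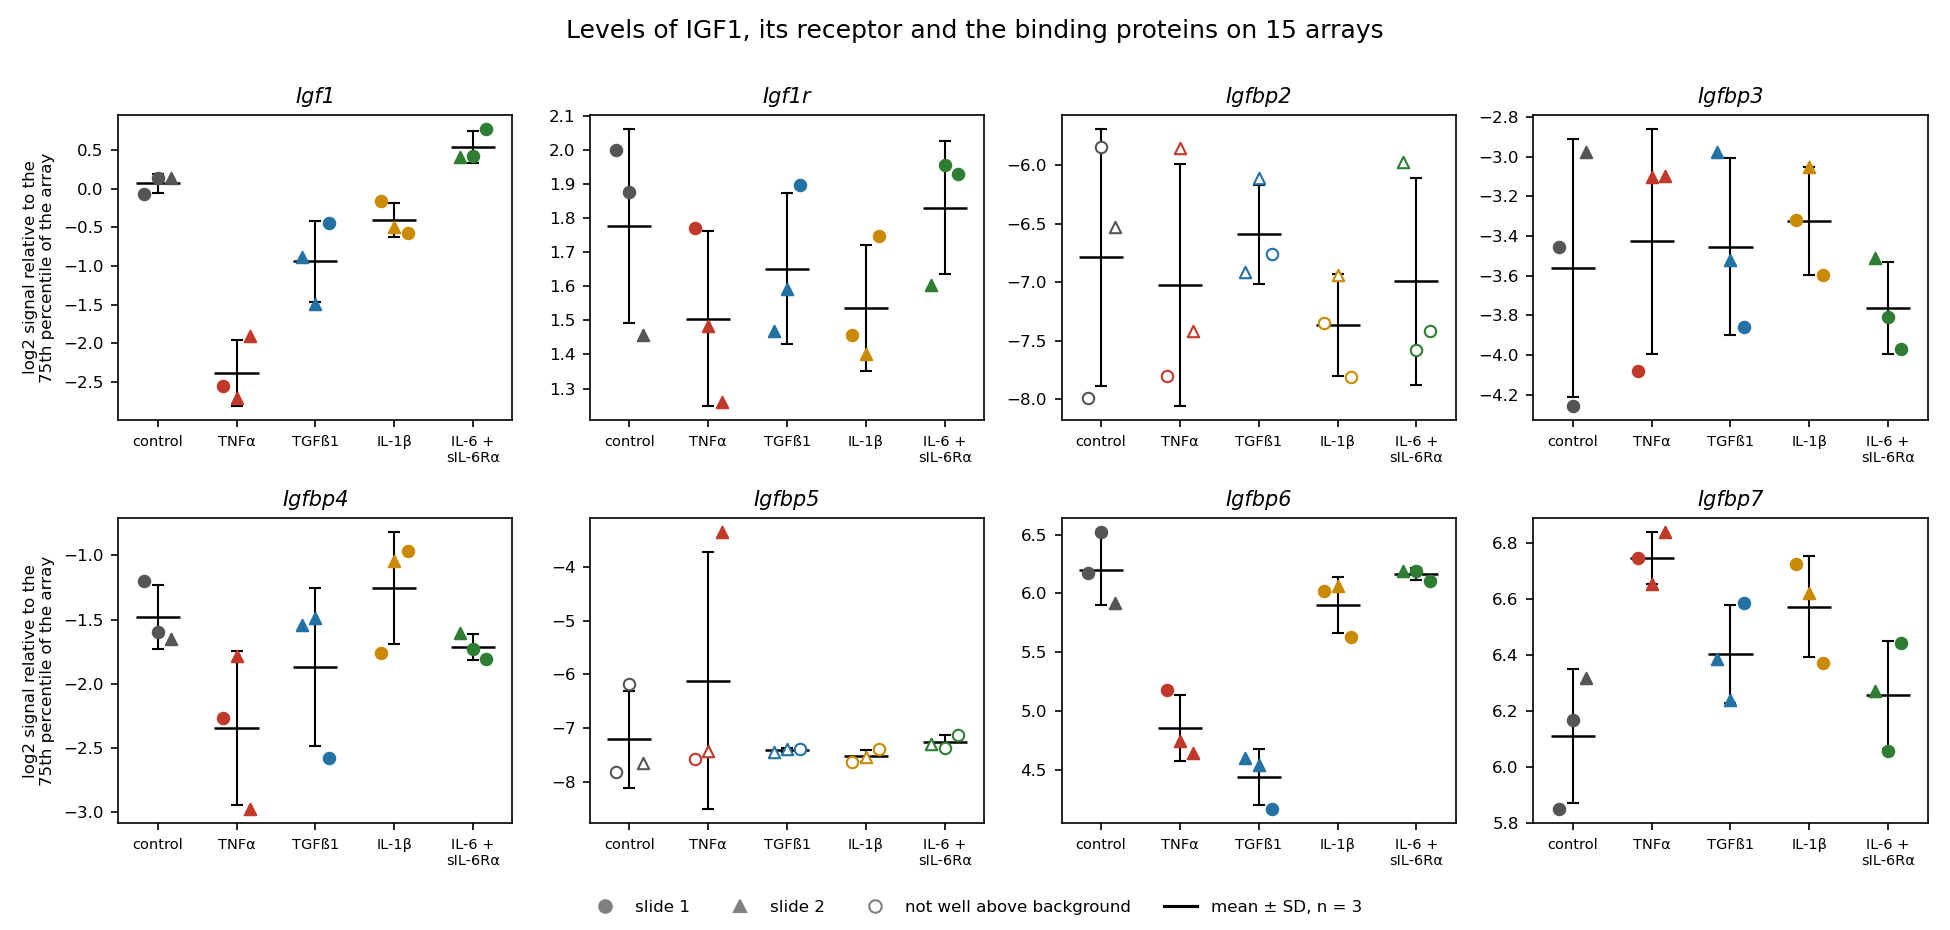
Levels of the 8 members on the 15 arrays, 1 panel a gene and 1 point an array, as log2 signal relative to the 75th percentile of the array (each panel has its own axis, so panels are not comparable in height). Lines are the mean ± SD of 3 arrays, symbols give the slide, and hollow symbols are values not well above background. *Igf1* is lowest on the 3 TNFα arrays, *Igfbp6* is low on all TNFα and TGFß1 arrays, and *Igfbp2* and *Igfbp5* are hollow nearly throughout.

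*Igf1*, the ligand, lay at -0.07, 0.14 and 0.14 on controls 1, 11 and 6. It lay at -2.55, -2.71 and -1.90 on TNFα 14, 4 and 9. On TGFß1 12, 2 and 7 it was -0.88, -1.49 and -0.45. All TNFα values lay below all TGFß1 values, and all of these below all controls. Groups without overlap were found for 29.6% of all probes with TNFα, 39.1% with TGFß1 and 34.7% between the 2 cytokines. On IL-1β 10, 15 and 5 *Igf1* was -0.16, -0.49 and -0.58, below every control but overlapping with TGFß1. On IL-6 13, 8 and 3 it was 0.41 to 0.77, above every control.

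*Igf1* fell 5.50-fold with TNFα (log2 fold-change -2.46, SE 0.26, q-value 6.95e-05). The difference was -2.41 with the slide in the model, and -2.58 and -2.45 within slides 1 and 2. With TGFß1 *Igf1* fell 2.02-fold (log2 fold-change -1.01, SE 0.26, q-value 0.0133). This smaller fall depended on TGFß1 2: without that array it was -0.74 with a q-value of 0.0575. Within slide 1 it was -0.48, with 1 TGFß1 array, and within slide 2 -1.33.

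The direct test of TNFα against TGFß1, in which 11.8% of all probes were called, gave a difference of -1.45 for *Igf1* (SE 0.26, q-value 0.00197). From the lowest to the highest mean, the order of the groups was TNFα, TGFß1, IL-1β, control and IL-6. Only the first step of this order was called. IL-1β and TGFß1 differed by 0.53 (95% interval -0.03 to 1.09, q-value 0.160). IL-1β differed from control by -0.48 (95% interval -1.04 to 0.08) and IL-6 by 0.47 (95% interval -0.10 to 1.03), and each q-value was 1.00. The groups did not overlap in either comparison, as for 5.38% and 5.19% of the probes. The 2 cytokines at the middle and the top of the order, IL-1β and IL-6, were 0.95 apart (q-value 0.246). In the fit with the slide and the runs of label numbers as blocks this difference passed, with a q-value of 0.00802, beside 1.77% of all probes. *Igf1* was higher with IL-6 than with TNFα by 2.92 (q-value 2.01e-05) and than with TGFß1 by 1.48 (q-value 0.00160), and higher with IL-1β than with TNFα by 1.98 (q-value 0.000802). In these 3 comparisons 8.68%, 16.4% and 4.83% of all probes were called.

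Markers of adipocytes, a cell type that some 3T3 lines can turn into, were as a sum also lower with TNFα and TGFß1. All 4 were well above background on the controls, and their summed linear level relative to the 75th percentile was 3.56 to 4.49 on controls, 0.408 to 0.698 on TNFα and 1.15 to 2.52 on TGFß1 arrays. It was 2.75 to 5.15 on IL-1β and 3.01 to 5.61 on IL-6 arrays. With TNFα 3 of the 4 were called lower (*Adipoq* -4.44, with 1 of 3 TNFα arrays well above background, *Fabp4* -3.23 and *Plin1*, which was well above background on no TNFα array and at least 2.93-fold lower), and *Lep* was not. With TGFß1 *Fabp4* was called lower (-1.5). Of all probes 6.06% were called lower with TNFα and 10.8% with TGFß1. The sum mostly follows *Fabp4*, the brightest of the 4. Among the TGFß1 arrays *Fabp4* was lowest on TGFß1 7 (-0.47, against 0.19 and 0.95 on TGFß1 2 and 12), where *Igf1* was highest. *Adipoq* was lowest on TGFß1 2 (-2.12, against -1.82 and -1.52 on TGFß1 7 and 12), where *Igf1* was lowest too. TGFß1 7 was the only TGFß1 array on slide 1. *Fabp4* was also lower on slide 1 than on slide 2 with TNFα, IL-1β and IL-6, but not on all controls. The part of the adipocyte markers in the fall of *Igf1* was not tested.

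The summed linear level of the 7 epithelial markers was 0.168 to 0.427 on TGFß1 arrays, against 0.0925 to 0.167 on controls and 0.0662 to 0.109 on TNFα arrays. *Krt8* and *Krt18*, keratins of simple epithelia, were the 2 that were tested. *Krt8* was well above background on all TGFß1 arrays and on no control, and was called at least 3.32-fold higher (q-value 0.0176). It passed the filter on dim probes only through the TGFß1 group, where it was high. Its calls against that group are therefore descriptions and no independent test. *Krt18* was 1.77 above control with TGFß1 (q-value 0.176) and called with the slide and the runs as blocks (1.67, q-value 0.00106). That fit also called both keratins lower with TNFα than on controls. For *Krt8*, at background on the controls, that call gives no order of the groups. Between TNFα and TGFß1 both were called lower with TNFα, *Krt18* by -3.26 and *Krt8* at least 3.17-fold. Their part in the results with TGFß1 was not tested.

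*Igf1r*, the receptor of IGF1, was not called in any comparison. On the brighter of its 2 probes it lay at 2.00 and 1.88 on controls 1 and 11, but at 1.46 on control 6. TNFα 14 was at 1.77, and TNFα 4 and 9 were at 1.48 and 1.26. TGFß1 7 was at 1.90, and TGFß1 2 and 12 at 1.59 and 1.47. In each of these groups the arrays of slide 1 were the higher ones, and the same held with IL-1β and IL-6. With TNFα the log2 fold-change was -0.27 (95% interval -0.68 to 0.13, q-value 0.393) and with the slide in the model -0.15. The dimmer probe gave -0.51 with TNFα (SE 0.12, q-value 0.0122), with controls from 0.01 to 0.26 and TNFα arrays from -0.45 to -0.26. This passed the q-value, but at 1.42-fold not the fold-change threshold. The values did not overlap, as for 29.6% of all probes.

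Binding proteins 2 and 5, which are coded next to each other on chromosome 1, were at background. *Igfbp2* was well above background on 0 of 15 arrays. *Igfbp5* was so on TNFα 9 alone, at -3.36, while its other 14 values lay between -7.81 and -6.17. The other TNFα arrays were at -7.43 and -7.56, so that no TNFα level can be given for *Igfbp5*. Neither gene was tested, and a signal at background gives no order of the groups.

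*Igfbp3*, the main carrier of IGF in blood, was dim but well above background on all arrays, from -4.26 to -2.98. Its values differed more between the controls (-3.45, -4.26 and -2.98) than between any group means (-3.76 to -3.32). In every group the array or arrays of slide 2 were the highest. With TNFα the difference was 0.13 (95% interval -0.62 to 0.89) and turned to -0.08 with the slide in the model. With TGFß1 it was 0.11 (95% interval -0.65 to 0.86) and turned to -0.11. No order of the groups can be given for *Igfbp3*.

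*Igfbp4*, which mostly holds IGF back from the receptor, was at -1.20, -1.60 and -1.65 on controls 1, 11 and 6. On TNFα 4, 14 and 9 it was -1.78, -2.27 and -2.98, below every control (29.6% of all probes had no overlap). On TGFß1 it was -1.49, -1.54 and -2.58, where TGFß1 7 stood apart, and on IL-1β it was -1.76 to -0.97. With TNFα the log2 fold-change was -0.86 (SE 0.34, q-value 0.121), and the second probe gave -0.88 (q-value 0.165), with TNFα 4 (-2.15) just above control 6 (-2.17). Within slides 1 and 2 the first probe gave -0.87 and -0.73. With the slide and the runs of label numbers as blocks it was -0.93 and called, with a q-value of 0.00449, in a fit where 15.4% of all probes were called. With TGFß1 the difference was -0.39 (95% interval -1.12 to 0.35). It was -1.18 within slide 1, where TGFß1 7 was the only TGFß1 array, and 0.13 within slide 2. *Igfbp4* had its highest mean with IL-1β and its lowest with TNFα, 1.09 apart (95% interval 0.35 to 1.82, q-value 0.0853). That difference was called with the slide and the runs (1.16, q-value 0.00232, beside 10.5% of all probes) and after another background correction (0.83, q-value 0.0440). Between IL-1β and TGFß1 *Igfbp4* differed by 0.61 (q-value 0.215), and by 0.68 with the slide and the runs (q-value 0.0146), where it was called beside 22.1% of all probes. The second probe gave 0.68 in that fit and was not called (q-value 0.0687).

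*Igfbp6*, a binding protein that prefers IGF2 to IGF1, was at 6.17, 6.52 and 5.91 on controls 1, 11 and 6. On TNFα 14, 4 and 9 it was 5.18, 4.74 and 4.64, and on TGFß1 12, 2 and 7 it was 4.60, 4.54 and 4.16. Each TGFß1 value lay below each TNFα value and these below each control. Such separation was found for 34.7% of all probes between the 2 cytokines, and against control for 29.6% with TNFα and 39.1% with TGFß1. On the IL-1β arrays it was 5.63 to 6.06 and on the IL-6 arrays 6.10 to 6.19, within or near the range of the controls.

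With TGFß1 *Igfbp6* fell 3.40-fold (log2 fold-change -1.77, SE 0.19, q-value 6.06e-05), by -2.18 and -1.34 within slides 1 and 2. With TNFα it fell 2.54-fold (log2 fold-change -1.35, SE 0.19, q-value 0.000647), by -1.17 and -1.22 within the slides. Both falls were called in all 6 fits that left out 1 array. The groups with TNFα and TGFß1 did not differ beyond the thresholds (0.42, 95% interval 0.00 to 0.84, q-value 0.180). Both lay below IL-1β and IL-6: *Igfbp6* was higher with IL-1β than with TNFα by 1.05 (q-value 0.00721) and than with TGFß1 by 1.47 (q-value 0.000224). It was higher with IL-6 than with TNFα by 1.31 (q-value 0.000813) and than with TGFß1 by 1.73 (q-value 6.69e-05). Of all probes 17.0% were called between IL-1β and TGFß1. IL-1β, IL-6 and control could not be ordered, with differences from control of -0.30 (95% interval -0.71 to 0.12) and -0.04 (95% interval -0.45 to 0.38).

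*Igfbp7*, a secreted protein with low affinity for IGF, was at 5.85, 6.17 and 6.32 on controls 1, 11 and 6. It was at 6.74, 6.65 and 6.84 on TNFα 14, 4 and 9, above every control (29.6% of all probes had no overlap). On the other arrays it was 6.24 to 6.58 with TGFß1, 6.37 to 6.72 with IL-1β and 6.06 to 6.44 with IL-6. It was the only one of the 6 with a rise that was called. This rise with TNFα was 1.55-fold (log2 fold-change 0.63, SE 0.15, q-value 0.0168), just over the threshold on the fold-change. It was 0.74 and 0.43 within slides 1 and 2. The call did not hold without control 1 (0.50, q-value 0.0634) or without TNFα 9 (0.59, q-value 0.0614), and it did not hold when arrays were scaled to their median (0.54, q-value 0.0807) or quantile normalized (0.56). IL-1β arrays also lay above every control (0.46, 95% interval 0.13 to 0.79, q-value 0.762), where 5.38% of all probes had no overlap. In order of their means the groups were control, IL-6, TGFß1, IL-1β and TNFα, and no neighbours in this order differed beyond the thresholds.

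**Figure D2:**
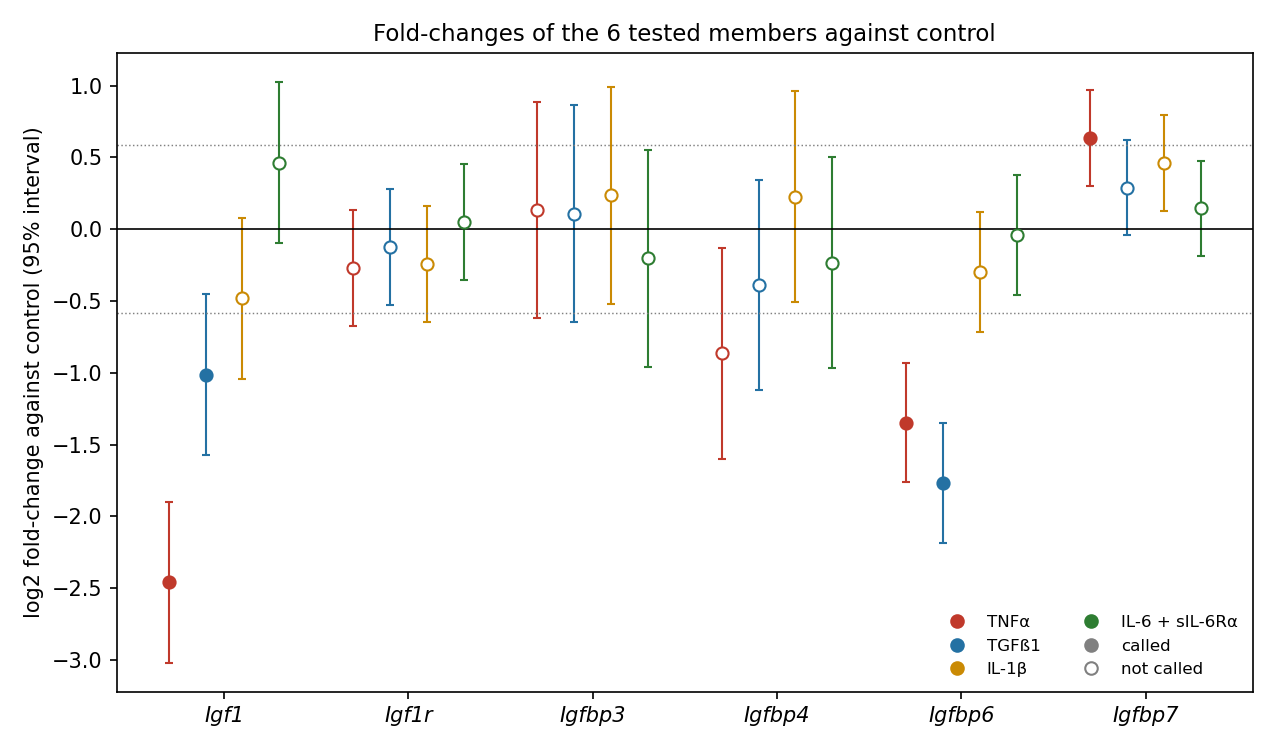
Log2 fold-change of the 6 tested members against control (vertical axis) for each cytokine, with 95% intervals of the fit of 15 arrays. Filled points were called, hollow ones were not, and dotted lines mark a fold-change of 1.5. The largest value is that of *Igf1* with TNFα, -2.46, the rise of *Igfbp7* with TNFα lies just over the dotted line at 0.63, and all intervals of *Igfbp3* cross 0.

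For each of the 3 members that were called, the 3 genes whose level was most like it were found by Pearson's r over the 15 arrays, among 13491 genes. The arrays share groups, slides and scaling, so these values are descriptions. *Igf1* was most like *Mgarp* (r = 0.989), *Serpinb1a*, an inhibitor of neutrophil proteases (r = 0.983), and *Fam102b* (r = 0.968). With TNFα and TGFß1 *Mgarp* changed by -1.56 and -0.76 and *Serpinb1a* by -2.88 and -1.23, and all 4 differences were called. *Fam102b* was called with TNFα (-1.12) but at -0.53 not with TGFß1. With the slide difference removed, *Serpinb1c* took its place, which was called with TNFα (-3.26) and not with TGFß1 (-1.08, q-value 0.131). *Igfbp6* was most like *Tesk2*, a kinase (r = 0.977), *Smad6*, an inhibitor of BMP signaling (r = 0.973), and *Kazald1* (r = 0.971). *Igfbp7* was most like *Kcnip4* (r = 0.895), *Antxr1*, a receptor of collagen-rich matrix and of anthrax toxin (r = 0.865), and *Rgs3*, a regulator of G protein signaling (r = 0.850). Among the members themselves r was 0.69 for *Igf1* with *Igfbp6* and -0.56 for *Igf1* with *Igfbp7*. For *Igf1r* with *Igfbp3* r was -0.80, and with the slide removed -0.50.

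Of the 8 proteases that cut IGF-binding proteins and their inhibitors, 5 were tested. TNFα gave 1 call higher and 3 lower, and TGFß1 gave 2 calls higher and 1 lower, beside 10.2% and 18.0% of all probes. The medians were -0.68 and 1.01, against 0.04 and 0.05 over all probes. *Pappa*, a metalloprotease that cuts Igfbp4 when IGF is bound to it, moved in opposite directions with the 2 cytokines. It was at 0.04, -0.10 and 0.13 on controls 1, 11 and 6. With TNFα it was -2.02, -1.94 and -1.83, and with TGFß1 it was 1.02, 0.73 and 1.47, so that none of the 3 groups overlapped. Against control this held for 29.6% of all probes with TNFα and 39.1% with TGFß1, and between the 2 cytokines for 34.7%. *Pappa* fell 3.87-fold with TNFα (log2 fold-change -1.95, SE 0.20, q-value 5.45e-05) and rose 2.07-fold with TGFß1 (1.05, SE 0.20, q-value 0.00241). Between TNFα and TGFß1 the difference was -3.00 (q-value 8.65e-07). Within the slides the TNFα difference was -1.99 and -2.02 and the TGFß1 difference 1.5 and 0.75.

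*Stc2*, a stanniocalcin that blocks the Pappa protease, rose with TNFα while *Pappa* fell. Controls 1, 11 and 6 were at -3.47, -3.83 and -5.42, and TNFα 14, 4 and 9 at -1.91, -1.66 and -2.55. The rise was 4.60-fold (log2 fold-change 2.20, SE 0.49, q-value 0.0112), 1.74 and 3.32 within slides 1 and 2, and without TNFα 4 it was 2.01 with a q-value of 0.0541. After another background correction it was called at 1.24. With TGFß1 *Stc2* was 1.01 above control (q-value 0.157), and called with the slide and the runs as blocks (1.16, q-value 0.000895, beside 22.4% of all probes). TNFα and TGFß1 differed by 1.19 (q-value 0.137), a difference that was called after another background correction (0.75, q-value 0.0467) and with slide and run of label numbers as a block (q-value 0.000959). *Htra1*, a secreted serine protease, was lower with TNFα by -1.04 (q-value 0.0235), a call that was kept in 1 of the 6 fits without 1 array, that without TNFα 14. *Ctsd*, a lysosomal protease, fell with both (-0.68 and -0.78), and *Adam12*, a membrane protease that cuts Igfbp3 and Igfbp5, rose with TGFß1 (1.27, q-value 0.00605).

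**Figure D3:**
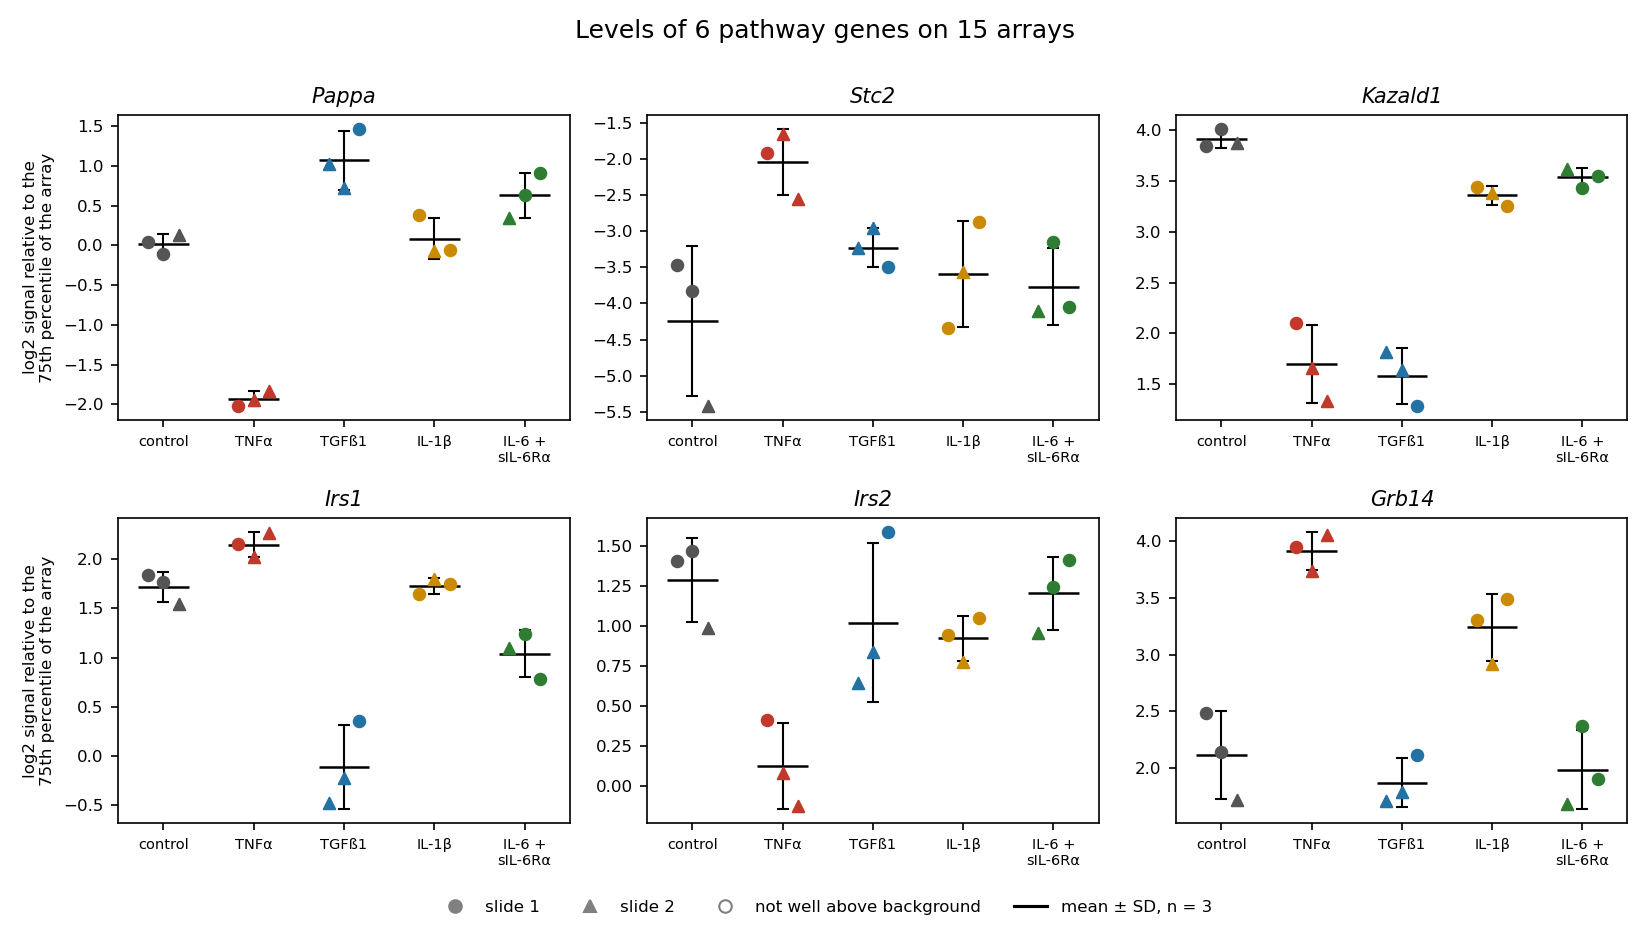
Levels of 6 genes of the IGF pathway on the 15 arrays, 1 point an array, as log2 signal relative to the 75th percentile of the array, with mean ± SD of 3 arrays and the slide as symbol (axes differ between panels). *Pappa* is below the controls with TNFα and above them with TGFß1, *Kazald1* is low with both, *Irs1* is low with TGFß1 and *Irs2* with TNFα, and *Grb14* is high with TNFα and next with IL-1β.

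Proteins outside the family that carry an IGFBP-like domain were tested for 8 of 11 genes. TNFα gave 0 calls higher and 1 lower, while TGFß1 gave 2 higher and 4 lower, beside 10.2% and 18.0% of all probes. The medians were -0.18 and -0.11, against 0.04 and 0.05 over all probes. The slide in the model added *Ccn1* with TGFß1 (0.73, q-value 0.0150, beside 20.1% of all probes). With the slide and the runs as blocks *Ccn3* was also called higher (1.42) and *Ccn5* lower (-0.86) with TNFα, beside 15.4% of all probes. *Kazald1*, a secreted protein of bone and other tissue, lay at 3.85 to 4.01 on controls, 1.33 to 2.10 with TNFα and 1.28 to 1.82 with TGFß1. It fell by -2.22 (SE 0.18, q-value 1.04e-05) and -2.33 (SE 0.18, q-value 4.98e-06), without overlap with the controls. The same lack of overlap was found for 29.6% of all probes with TNFα and 39.1% with TGFß1. *Ccn2*, the connective tissue growth factor, rose with TGFß1 by 3.06 (SE 0.39, q-value 0.000190), and so did *Ccn4* (1.17, q-value 0.000571). *Ccn3* was well above background on no TGFß1 array and on all controls, a fall of at least 3.31-fold (q-value 0.00105). After another background correction *Ccn3* was -0.67 with TGFß1 and not called (q-value 0.0507). *Ccn5* fell by -1.33 with TGFß1 (q-value 0.00897). The fourth lower gene was *Crim1* (-0.68).

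Of the 30 adaptors and kinases downstream of the IGF1 receptor, 27 were tested. TNFα gave 1 call higher and 4 lower, while TGFß1 gave 2 higher and 1 lower, beside 10.2% and 18.0% of all probes. The medians were -0.06 and -0.00, against 0.04 and 0.05 over all probes. *Irs1* and *Irs2*, the docking proteins of the IGF1 and insulin receptors, divided between the cytokines. *Irs1* was at 1.84, 1.77 and 1.55 on controls 1, 11 and 6 and at -0.48, -0.22 and 0.36 on TGFß1 12, 2 and 7, a fall of -1.83 (SE 0.19, q-value 4.48e-05). With TNFα it was at 2.02 to 2.27, above every control (29.6% of all probes had no overlap). Its difference between TNFα and TGFß1 was 2.26 (q-value 6.12e-06). *Irs2* was at 1.41, 1.47 and 0.98 on controls 1, 11 and 6 and at 0.41, 0.08 and -0.13 on TNFα 14, 4 and 9, a fall of -1.16 (SE 0.24, q-value 0.00647). The difference of *Irs2* between TNFα and TGFß1 was -0.90 (q-value 0.0208), and it was not called without TNFα 4, TNFα 9 or TGFß1 7 (q-values 0.0617, 0.0902 and 0.0738).

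*Grb14*, an adaptor that inhibits signaling of the insulin receptor, rose 3.49-fold with TNFα (log2 fold-change 1.80, SE 0.23, q-value 0.000277). It was at 2.49, 2.13 and 1.72 on controls 1, 11 and 6 and at 3.95, 3.74 and 4.06 on TNFα 14, 4 and 9. With IL-1β it was 2.92 to 3.49, above every control (1.13, q-value 0.0928), where 5.38% of all probes had no overlap. It was called with the slide in the model (q-value 0.00930), where 0.358% of all probes were called. The regulatory subunits of PI3 kinase *Pik3r2* (-0.82) and *Pik3r3* (-0.88) were lower with TNFα, the latter in only 1 of the 6 fits without 1 array, that without control 11. A second *Pik3r2* probe gave -0.83 and was not called (q-value 0.0860). The fourth lower gene was the transcription factor *Foxo1* (-0.69, q-value 0.0414). Its call was kept in 1 of the 6 fits, that without TNFα 14, and was lost with median scaling (q-value 0.101). With the slide in the model, where 11.9% of all probes were called, *Foxo1* was at -0.56 (q-value 0.00658). The slide and the runs gave -0.57 (q-value 0.000592). Both passed the q-value but not the fold-change threshold, and were not called. A second *Foxo1* probe (-0.57, q-value 0.00476) was likewise not called on the fold-change alone. The catalytic subunit *Pik3cb* rose with TGFß1 (0.94), while a second probe gave 0.75 and was not called (q-value 0.0992). *Eif4ebp1*, an inhibitor of translation, was called with TGFß1 (0.66), but in only 2 of 6 such fits, those without control 1 or 11.

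The remaining lists gave few or no calls. The other ligands, receptors and binding proteins of the axis were tested for 3 of 9 genes, *Igf2r*, *Insr* and *Insrr*, and 0 were called by limma in any of the 4 comparisons with control. Of these 1 had an unadjusted p below 0.05, with TGFß1 (*Igf2r*, -0.67, q-value 0.0680), and it was called with the slide and the runs as blocks (-0.67, q-value 0.000705). *Igf2*, *Igfbp1*, *Igfals*, *Igfbpl1*, *Ins1* and *Ins2* were not tested. The growth hormone route to *Igf1* had all 5 genes tested, and the growth hormone receptor *Ghr* was called lower with TGFß1 (-0.60). With the slide in the model, where 20.1% of all probes were called, it was -0.57 and under the fold-change threshold, as it was without control 1 or 6. Further *Ghr* probes were also called lower with TGFß1 (-0.67, q-value 0.0157, and -0.59, q-value 0.0257). The 3 IGF2 mRNA-binding proteins had 0 calls with limma, and 1 unadjusted p below 0.05, with TGFß1. With IL-1β and IL-6, 0 of the 51 genes tested of all these lists were called by limma, and 4 and 4 had an unadjusted p below 0.05. With the slide and the runs as blocks, 3 were called with IL-1β, beside 1.09% of all probes: *Htra1* was lower (-0.67), and *Ccn5* (0.71) and *Grb14* (1.13) were higher. With IL-6 this fit called *Pappa* higher (0.61), beside 0.777% of all probes.

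**Figure D4:**
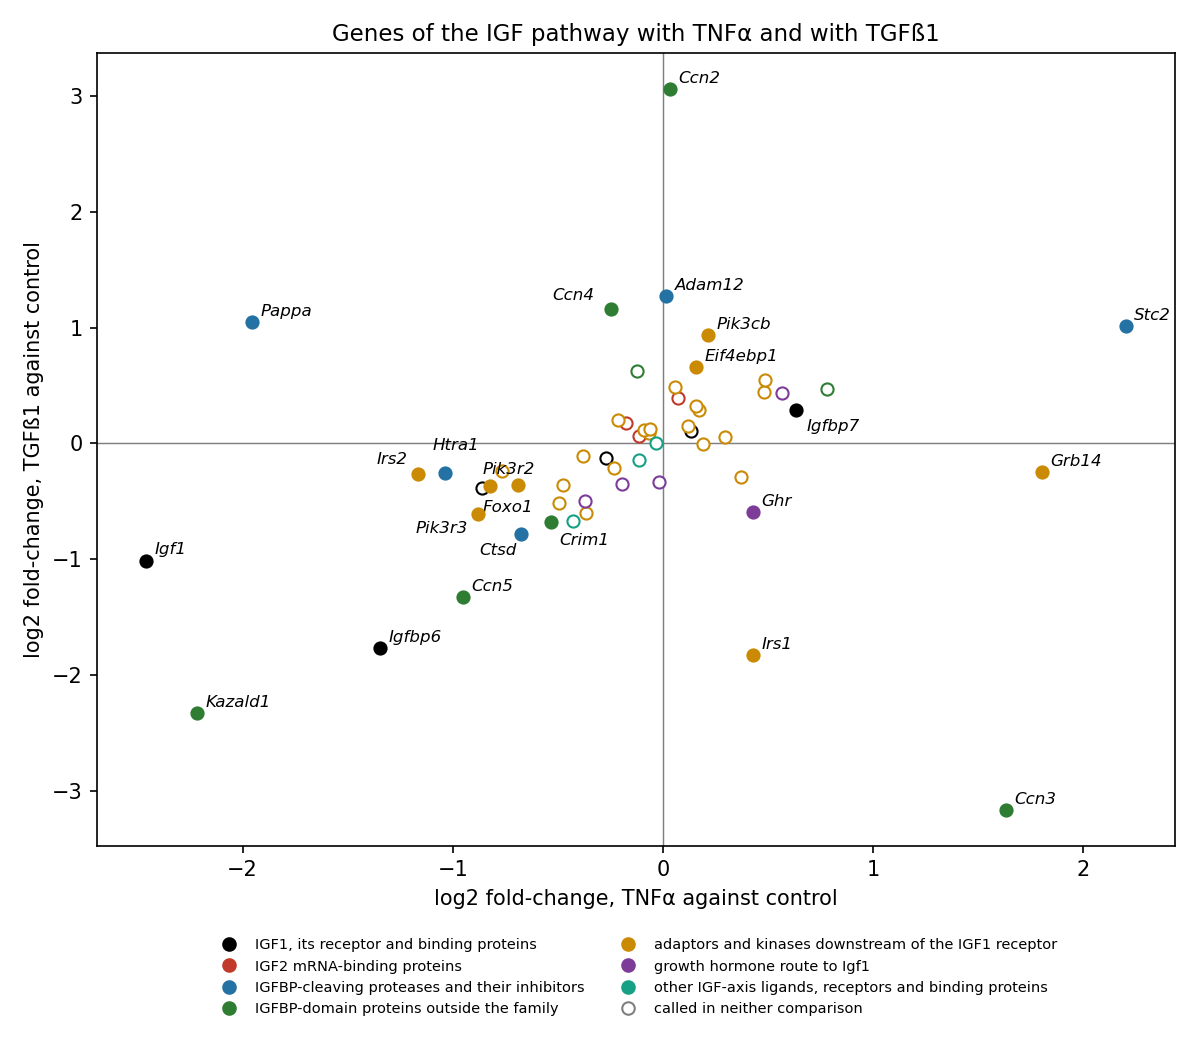
Log2 fold-change against control of the tested genes of the IGF pathway with TNFα (horizontal axis) and with TGFß1 (vertical axis), coloured by list, filled and named where called in at least 1 of the comparisons. Both axes use the same 3 controls, so that their spread enters both. *Igf1*, *Igfbp6* and *Kazald1* lie at the lower left, *Pappa* at the upper left (-1.95 and 1.05), and *Irs1* at the lower right. The value of *Ccn3* with TGFß1 rests on signals at background.

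A second probe of 3 listed genes went another way than the probe shown, which is the one with the highest mean signal. *Htra3* was not called with TNFα (0.78), while another probe gave -3.49. *Insrr* was not called (-0.03), while another gave 3.39. *Stat5a* was not called with TGFß1 (0.43), while another gave -1.51. For these 3 genes no direction can be given.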

How the data were processed

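RNA of MEFs was measured on 15 one-color Agilent 60-mer arrays, 3 for each of 5 groups taken from the labels. The authors labelled RNA with Cyanine 3 and extracted the spots with Agilent Feature Extraction 10.7.3.1. The deposited values are intensities, the processed signal after background subtraction and detrending, without normalization between arrays. The series' own values are the same intensities (largest difference 0). The study's methods name limma with a q-value threshold.

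Non-uniform and outlier spots were left out, log2 intensities were averaged per probe, and the 75th percentile of the 59305 non-control spots of each array was subtracted. A probe was tested if at least 0.5 of its spots were well above background on all arrays of at least 1 group (29334 of 56605 probes). Where a group was nowhere above background, a fold-change is a bound, against the higher of the probe's value and the dimmest value well above background on each array. All 15 arrays entered 1 fit (limma 3.58.1, R 4.3.3), two-sided, with Benjamini-Hochberg adjustment over all probes. Tables and figures used Python with pandas and matplotlib. The fit was tested on simulated data with noise independent between arrays, so that this check does not cover the slide or the runs. Names came from RefSeq transcripts (assembly GRCm38.p6), which gave 33767 probes 1 gene name. Gene positions are not given, as the array design is based on another assembly. Promoter windows carry positions of the RefSeq assembly.

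A further alternative took differences within each slide. A gene is shown by its brightest tested probe. The genes named are the members, at most 3 called genes of each list and direction (*Crim1*, *Foxo1*, *Igf2r*, *Ccn1* and the keratins were added after their values were seen), and the 3 most like each called member. The pathway genes whose second probe disagreed were also chosen after seeing the data. Members and lists were chosen with earlier results of these data known. Alternatives were the slide and runs of label numbers as blocks, scaling, background correction (normexp with an offset of 50 on median brightness), filter, threshold, fit of 9 arrays, the series' own values, mean over probes, and leaving out each array.

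Label numbers form 3 runs of 5 arrays, 1 of each group. The labels do not state that a run is 1 experiment. With the slide removed, deviations from group means correlated above 0.1 in 30 of 30 same-run pairs (0.114 to 0.671) and in 2 of 60 other pairs. As measured, these were 12 of 30 and 28 of 60.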

Additional observations from a re-analysis of the deposited data

How the results depend on the processing

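Called changes of *Igf1* and *Igfbp6* kept their direction under each alternative. The number of members called between IL-1β and IL-6 went from 0 to 1 (*Igf1*), and between IL-1β and TGFß1 from 1 to 2 (*Igfbp4* added), with the slide and the runs of label numbers as a replicate block, a fit in which 1.77% and 22.1% of all probes were called. This block also called *Igfbp4* between TNFα and control, IL-1β or IL-6. By its second probe *Igfbp4* was not called with this block between IL-6 and TNFα (0.75, q-value 0.0656) or between IL-1β and TGFß1 (0.68, q-value 0.0687). The labels do not say that the runs pair the arrays. With 1 array left out, 1 to 2 members were called between TGFß1 and control and 2 to 3 between TNFα and control. No member's difference that changed sign was called. With the slide, and with the slide and the runs, in the model these were *Igf1r* between IL-1β and TNFα (-0.089 and -0.090), *Igfbp3* between TGFß1 and control (-0.11 and -0.13) and *Igfbp3* between TNFα and control (-0.083 and -0.099). *Igfbp3* between TNFα and TGFß1 turned with median scaling (-0.090), normexp (-0.0067) and quantile normalization (-0.087), and *Igfbp7* between IL-6 and TGFß1 turned with quantile normalization (0.037). The cause was not tested.

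With 1 array left out, *Igf1r* ranged from -0.22 to 0.0061 between IL-1β and TGFß1, from -0.092 to 0.16 between IL-1β and TNFα, and from -0.11 to 0.17 between IL-6 and control. *Igfbp3* ranged from -0.073 to 0.37 between IL-1β and TGFß1, from -0.22 to 0.27 between IL-1β and TNFα, and from -0.18 to 0.35 between TNFα and TGFß1. Against control *Igfbp3* ranged from -0.11 to 0.53 with IL-1β, from -0.55 to 0.093 with IL-6, from -0.24 to 0.40 with TGFß1 and from -0.21 to 0.46 with TNFα. *Igfbp4* between IL-6 and TGFß1 ranged from -0.20 to 0.35, and *Igfbp6* between IL-6 and control from -0.18 to 0.12. *Igfbp2* and *Igfbp5* are limited by signal at background.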
